A study of Ovis aries with 16 samples.

Results

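Fetal sheep that had received ketamine before a period of maternal hypoxia were compared with fetuses that had received ketamine and stayed normoxic, so that both sides of the comparison carried the drug. The comparison used 8 of the 16 arrays of the series, 4 hypoxia + ketamine (HK1 to HK4) and 4 normoxia + ketamine (NK1 to NK4), grouped by sample title and description code. Every fetus was catheterized in late gestation and given ketamine intravenously at 3 mg/kg. The stimulus, either low oxygen in the gas breathed by the ewe or normoxia, lasted 30 min and was followed by 23.5 h of normoxia. Frontal cerebral cortex was taken 24 h after onset, and RNA of 1 fetus was hybridized to each single-colour sheep oligonucleotide array. The remaining arrays, 3 normoxia control and 5 hypoxia control without ketamine, entered the same fit and gave the response without the drug. One hypoxia control array carries that name in its title and code, while its other labels describe a normoxic fetus given ketamine. It was kept under its title, so it entered the ketamine comparison only through the spread shared by all groups. As 1 of the 5 hypoxia control arrays, it entered the response without ketamine, and every difference between the responses, directly.

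Ketamine is an anesthetic that blocks the NMDA receptor, an ion channel opened by glutamate, the main excitatory transmitter of the cortex. When oxygen falls, cells stabilize hypoxia-inducible factor (HIF), which raises genes for glycolysis, glucose uptake and vessel growth. Damaged or stressed tissue can also engage innate immunity, in which toll-like receptors, cytokines, interferon-stimulated genes and complement act within the brain and leukocytes carry antimicrobial peptides in from the blood. No gene was targeted in the design, so no transcript checked the hypoxia label directly. Tissue labels fitted the neuronal markers on the array, since SST, NPY, NEUROD1 and the neurofilament heavy chain gene were well above background on all 8 arrays. The array held none of the 14 oligodendrocyte markers that were looked up. The tissue was bulk cortex, in which fewer cells of a type and less RNA per cell cannot be told apart. The labels do not say which fetuses were twins or shared a ewe, so P-values measure the spread between these fetuses as labelled.

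The probes that carried the clearest changes are given here as printed on the array, so that it is plain which readings are independent. Each is a 60-base oligonucleotide written 5′ to 3′. Capitals mark the stretch that a probe shares with the other probe of the same gene. The C3 probes lie on separate stretches of the transcript:
C3 A_70_P041826: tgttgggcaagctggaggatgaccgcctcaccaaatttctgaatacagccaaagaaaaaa
C3 A_70_P041827: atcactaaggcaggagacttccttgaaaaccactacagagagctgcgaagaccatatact

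The obligatory subunit of the NMDA receptor was read by 3 probes under the names GRIN1 and NR1. The GRIN1 probes share 59 bases and amount to 1 reading, whereas the NR1 probe shares no long stretch with them:
GRIN1 A_70_P002821: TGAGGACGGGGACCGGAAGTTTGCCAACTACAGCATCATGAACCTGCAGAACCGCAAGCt
GRIN1 A_70_P002822: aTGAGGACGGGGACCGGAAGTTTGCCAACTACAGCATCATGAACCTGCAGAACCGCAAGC
NR1 A_70_P002761: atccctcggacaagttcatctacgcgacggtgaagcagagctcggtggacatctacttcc

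The kappa opioid receptor probes (OPRK1) share 59 bases, and the IL12A probes share 30, so the agreement of each pair is partly built in:
OPRK1 A_70_P068271: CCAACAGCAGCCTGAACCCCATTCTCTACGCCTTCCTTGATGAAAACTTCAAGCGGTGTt
OPRK1 A_70_P068272: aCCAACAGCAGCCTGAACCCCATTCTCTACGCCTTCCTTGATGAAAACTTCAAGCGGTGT
IL12A A_70_P051291: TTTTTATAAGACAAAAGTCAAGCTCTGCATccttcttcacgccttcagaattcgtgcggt
IL12A A_70_P051292: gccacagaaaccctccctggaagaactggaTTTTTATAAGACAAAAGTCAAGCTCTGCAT

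Hypoxia under ketamine upregulated 468 and downregulated 561 of 15008 probes at an unadjusted limma P below 0.05, which is 3.12% and 3.74% of the probes, or 6.86% in all. The number expected from the threshold alone was 750.4. After Benjamini-Hochberg adjustment 0 probes passed, and the lowest adjusted P was 0.431, so every call below is an unadjusted one. Changes were small, with a median size of 0.27 on the log2 scale among called probes. At least 2-fold changes numbered 15 upward and 5 downward. The 4 and 4 values did not overlap for 535 probes, or 3.56% of all, with hypoxia + ketamine above in 272 (1.81%) and below in 263 (1.75%). For 4 fetuses against 4 the smallest two-sided exact permutation P is 0.0286, and it belongs to each gene below whose groups are said not to overlap.

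**Figure D1:**
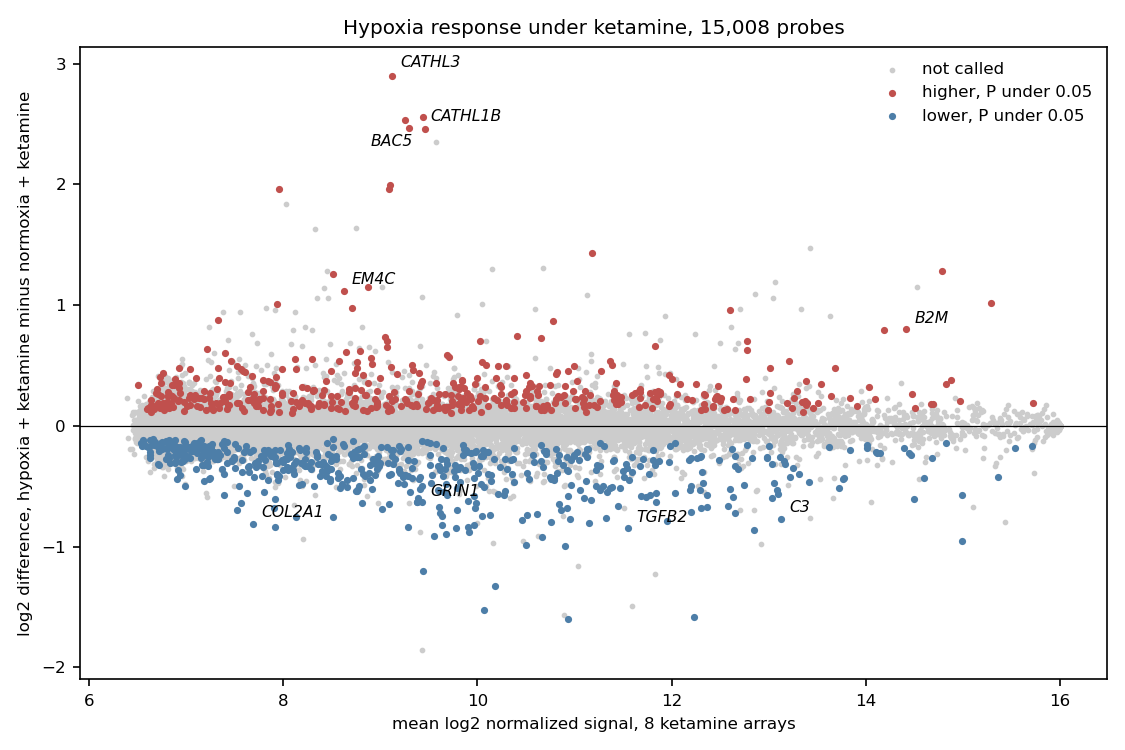
Each point is 1 of the 15008 probes, with its mean log2 signal over the 8 ketamine arrays on the horizontal axis and the log2 difference, hypoxia + ketamine minus normoxia + ketamine, on the vertical axis. Red and blue points passed the unadjusted P threshold of 0.05 upward and downward, and the cathelicidins CATHL3, CATHL1B and BAC5 lie furthest above 0 at 2.46 to 2.90.

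A gene name could be given to 1656 probes of 1010 genes, and 13352 probes remained unnamed. With 1 probe per named gene, 28 genes were higher (2.77%) and 37 were lower (3.66%), or 6.44% in all. The groups did not overlap for 15 of these genes upward (1.49%) and 21 downward (2.08%). Within the slides the arrays were balanced, with 2 fetuses of each ketamine group on each of 2 slides. Between 70.9 and 75.9% of spots were well above background. Any 2 of the 8 arrays correlated at 0.987 to 0.994. HK2 had the lowest mean correlation with the others, 0.989. With the doubly labelled control array placed in normoxia + ketamine, 534 probes were higher and 544 lower, and 75.7% of the 1029 calls were kept. DERL1, TLR3, FZD2, BGN, LOC443112 and STAR, described below, then lost their calls. For some of the results that depend on HK2, though not for all, values without it are given. Among the unnamed probes without overlap and well above background on every array of a group, 139 were called higher and 132 lower. Their 5 largest increases ran from 1.01 to 1.96, and their 5 largest decreases from -0.88 to -1.60.

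The most strongly upregulated named gene was CATHL3, a cathelicidin, one of the antimicrobial peptides stored in neutrophil granules. CATHL3 read 7.58, 7.58, 7.06 and 8.46 log2 units in NK1 to NK4 and 8.89, 11.98, 8.57 and 12.83 in HK1 to HK4. The groups did not overlap, yet HK2 and HK4 stood 3 log2 units or more above the rest while HK1 and HK3 lay just above NK4. The difference of the means was 2.90 ± 0.99 (SE) on the log2 scale, or 7.47-fold. It remained called when any 1 of the 8 arrays was left out, at 2.15 without HK4 and 2.43 without HK2, but not within slide 1 (2.86) or slide 2 (2.94) alone. The adjusted P = 0.579 and the exact permutation P = 0.0286. Without ketamine CATHL3 was also higher in mean, by 1.77 ± 1.02, which was not called. The responses differed by 1.13 ± 1.43, which was not called either.

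The other cathelicidins moved with it in the same fetuses. CATHL1B read 8.25, 7.77, 7.54 and 9.05 in normoxia + ketamine and 8.92, 12.31, 8.80 and 12.82 in hypoxia + ketamine, a difference of 2.56 ± 1.01. BAC5, the gene of another proline-rich cathelicidin, was higher by 2.46 ± 1.02. NK4 exceeded HK1 and HK3 for both genes, so the groups overlapped. Without HK2 CATHL1B gave 2.03 and BAC5 1.97, without HK4 they gave 1.86 and 1.75, and none of these was called. Their calls were also lost without NK2 (2.43 and 2.41) or NK3 (2.36 and 2.30), and that of BAC5 without NK1 (2.42). SC5, the fourth cathelicidin gene, read 7.98, 10.75, 8.32 and 11.22 after hypoxia against 7.76 to 8.13 in normoxia, but its difference of 1.64 ± 0.81 was not called. SC5 was not among the 5 probes gathered by their array description as cathelicidins. All 5 were called higher, where 3.12% of all probes were. Of the 5, 4 share at least 30 bases with another, so they are not separate readings. Without ketamine 5 of the 5 were positive, with a median of 1.77 and 0 called. The difference between the responses was called for 0 of them.

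Cathelicidins were 4 of the 8 neutrophil markers present on the array, out of 25 looked up. Summed over the 8 markers, signal ran from 2068 to 2848 in normoxia + ketamine and from 2822 to 25540 in hypoxia + ketamine. LTF, which encodes the granule protein lactoferrin, differed by 0.60 and was not called. CYBA, also among the 8 markers, was well above background on all 8 arrays and was not called. CYBB, the catalytic chain of the neutrophil oxidase, and MMP9, a granule protease, were not above background on any of the 8 arrays. Hence 3 of 8 neutrophil markers were called higher against 2.77% of all named genes, and the 3 were all cathelicidins. Whether neutrophil number or transcripts per cell moved was not tested.

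**Figure D2:**
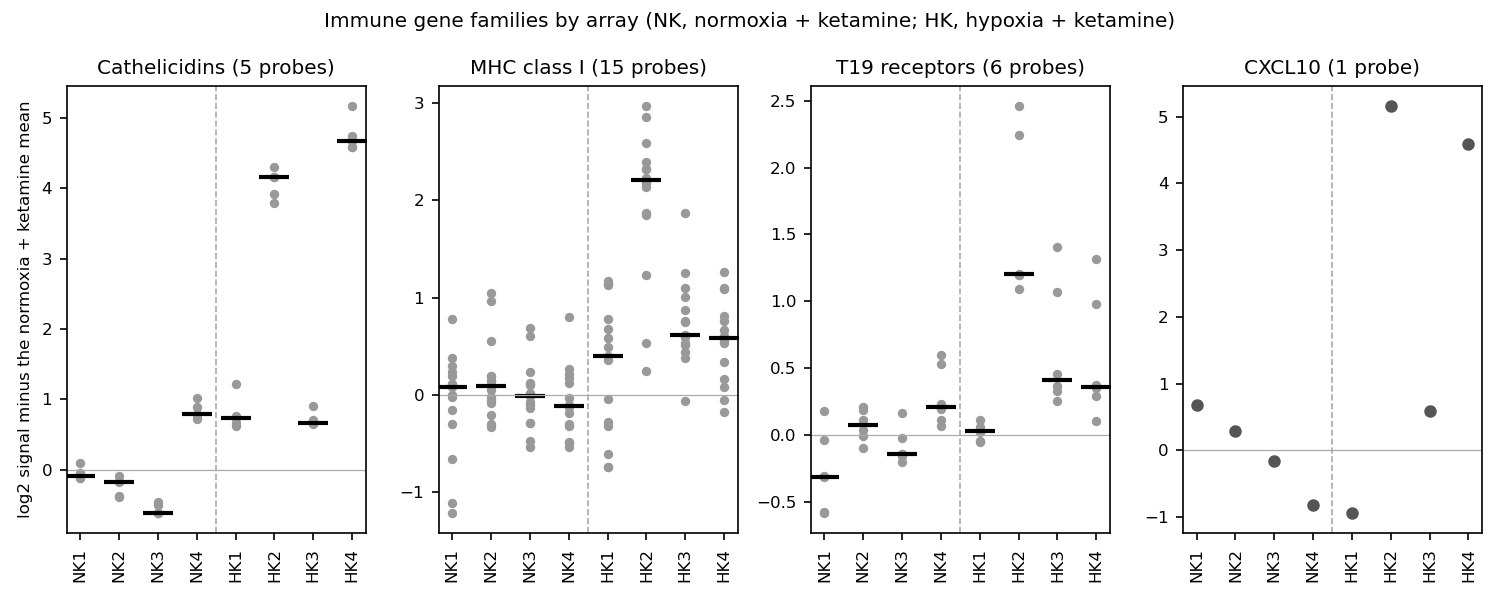
Log2 signal of each probe minus its own normoxia + ketamine mean, by array, for the cathelicidins (5 probes), major histocompatibility complex (MHC) class I (15 probes), T19 receptors (6 probes) and CXCL10 (1 probe). Grey points are probes and bars are medians over the probes of a family, and HK2 and HK4 are high for cathelicidins and CXCL10 while HK2 alone leads for MHC class I and T19.

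B2M, upregulated on both of its probes, encodes beta-2-microglobulin, the light chain of every MHC class I molecule. B2M read 13.92, 14.02, 14.22 and 13.90 in NK1 to NK4 and 14.63, 15.29, 14.60 and 14.76 in HK1 to HK4. All 4 hypoxic fetuses were above all 4 normoxic ones, by 0.80 ± 0.26 or 1.75-fold. Within slide 2 alone B2M gave 0.62, which was not called. The other B2M probe gave 0.80 ± 0.27 and again did not overlap. Without ketamine the corresponding increase was 1.03 ± 0.27, and the responses differed by -0.23 ± 0.37, which was not called.

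The heavy chains of MHC class I, which bind the peptide shown to T cells, were read by 15 probes gathered by their array descriptions after values had been seen. Probe A_70_P016816 read 14.37, 14.24, 14.13 and 13.83 in normoxia + ketamine and 15.29, 15.99, 15.01 and 15.41 in hypoxia + ketamine, a difference of 1.28 ± 0.44. Probe A_70_P001546 differed by 1.02 ± 0.38. The call of A_70_P001546 was lost without NK4 (0.86). Each of these probes was saturated on 1 hypoxia + ketamine array, where its value is a lower limit. All 15 differences were positive, from 0.44 to 1.48 with a median of 0.96. For 6 of the probes hypoxia + ketamine lay above without overlap, where 1.81% of all probes did. Of the 15, 2 were called, where 3.12% of all probes were called higher. When only the 8 ketamine arrays were fitted, or the doubly labelled control array was placed in normoxia + ketamine, 7 of the 15 were called. Over all 15008 probes 442 and 534 were then called higher. HK2 was the highest of the 4 hypoxia + ketamine arrays on 13 of the 15 probes. The calls of A_70_P016816 and A_70_P001546 were kept without HK2. Without ketamine the median over the same probes was 1.13, also with 15 positive. The genes are near copies of each other, and 8 of the 15 probes share at least 30 bases with another, so the 15 are not separate readings. Cross-hybridization between them was not tested. MHC class II, carried by microglia and other presenting cells, had 11 probes, of which 0 were called by limma's test, and HK2 was the highest hypoxia + ketamine array on 10 of them.

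Interferon-stimulated genes, induced when interferons signal, numbered 9 on the array. B2M was the 1 called higher, where 2.77% of all named genes were. The median difference over the list was 0.43, against 0.00 over all probes. CXCL10, a chemokine that attracts T cells, read 9.07, 8.70, 8.24 and 7.59 in normoxia + ketamine and 7.46, 13.56, 8.98 and 12.99 in hypoxia + ketamine. HK2 and HK4 were high again, whereas HK1 was below every normoxic fetus. With that spread, the difference of 2.35 ± 1.37 was not called. The exact permutation P = 0.286. Leaving out HK1 raised the difference to 3.45, which was called, and leaving out any other single array gave no call. Without HK2 the difference fell to 1.41, and it also fell without HK4. IRF1, an interferon-induced transcription factor, showed the same fetuses high, at 7.31, 9.39, 7.67 and 8.86 against 7.21 to 7.53, and was not called (0.98 ± 0.49). ISG15, a ubiquitin-like protein, gave -0.97 ± 1.24, with HK3 at 5.94 and all other ketamine arrays at 10.07 to 11.85. Without ketamine 6 of the 9 genes were called higher, where 6.34% of all named genes were, and the median was 1.17. The difference between the responses was negative for 9 of 9 genes, yet 0 were called for it.

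Toll-like receptors detect microbial and damage signals and act through MYD88 or TRIF. Under ketamine 2 of the 33 genes of the pathway on the array were higher and 1 was lower, with a median of 0.01, where 2.77% of all named genes were higher and 3.66% lower. TLR3, which senses double-stranded RNA, was higher by 0.19 ± 0.08, at 8.05 to 8.35 against 7.97 to 8.11, and its other probe was not called (0.12 ± 0.08). TRAF3, an adaptor downstream of the receptors, was lower (-0.24 ± 0.10). Both calls were lost without HK2 (0.15 and -0.20), NK3 (0.18 and -0.17) or HK3 (0.20 and -0.24). TLR3 also lost its call without NK1 (0.17) or HK4 (0.17), and TRAF3 without NK4 (-0.22). The third gene was IL12A, described below. In the response without ketamine 10 of the 33 genes were called higher and 0 lower, with a median of 0.12, where 6.34% of all named genes were higher and 4.26% lower.

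A further list held the genes also measured by PCR on the same RNA, with ACTB as the housekeeping control. On the array 17 of them were present, and 0 were called under ketamine by limma's test. NFKBIA, the inhibitor of NF-kappaB, read 11.80, 11.07, 10.66 and 11.09 after hypoxia and 10.61 to 11.05 in normoxia, a difference of 0.36 ± 0.34. Without ketamine NFKBIA was higher by 1.33 ± 0.35, but the responses differed by -0.97 ± 0.49, which was not called. CD14, the co-receptor for lipopolysaccharide, differed by 0.21 under ketamine and by 0.95 without it. That difference of -0.74 ± 0.35 was called. TLR2 differed by 0.11 against 0.55 without the drug, and the gap was not called. TLR4 and TNF differed by 0.00 and 0.12, both changing sign under some alternative settings. BAD, BCL2, BAX, AKT1, IL1B, PRKACA, IKKBETA, MYD88, NFKB and ACTB differed by -0.19 to 0.12.

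Among 35 cytokine, chemokine and receptor genes, 2 were higher and 1 was lower, where 2.77% and 3.66% of all named genes were called. IL12A encodes the smaller chain of interleukin-12, which drives type 1 T cell responses. The gene read 7.37, 7.32, 7.14 and 7.03 in normoxia + ketamine and 7.53, 7.87, 7.45 and 7.47 in hypoxia + ketamine on probe A_70_P051292. The groups did not overlap and differed by 0.36 ± 0.12. Probe A_70_P051291, which shares part of that sequence, gave 0.54 ± 0.13. Without ketamine IL12A was not called (-0.05 ± 0.12), and the difference of the responses, 0.41 ± 0.17, was called. CD40LG, the T cell ligand of CD40, was called at 0.19 on a probe that was not above background on any array, and its other probe gave -0.01. FLT3LG, a growth factor for dendritic cells, was higher by 0.25 ± 0.11 without overlap, a call lost when any of 6 arrays was left out (0.21 to 0.26).

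TGFB2, transforming growth factor beta 2, was the cytokine that fell. TGFB2 read 12.17, 11.58, 12.23 and 11.91 in NK1 to NK4 and 11.32, 10.45, 11.16 and 11.57 in HK1 to HK4. The groups were separate by a narrow margin between NK2 and HK4, and the difference was -0.85 ± 0.34. The call was lost without HK2 (-0.62), NK3 (-0.76) or NK1 (-0.78).

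T19 proteins, also called WC1, are scavenger receptors carried mainly by gamma delta T cells, which are abundant in young ruminants. Their 6 probes were gathered by array description after values had been seen. All 6 differences under ketamine were positive, from 0.37 to 1.26, and 5 were called, where 3.12% of all probes were called higher. All 5 calls were lost without HK2 (0.23 to 0.93) and all 5 without NK1 (0.37 to 1.07). The highest, A_70_P041466, read 7.31, 8.07, 7.68 and 8.49 in normoxia + ketamine and 7.95, 10.14, 9.29 and 9.21 in hypoxia + ketamine (1.26 ± 0.48). HK2 was highest and HK1 lay within the normoxic range, so the groups overlapped. In the response without ketamine 6 of 6 were negative, with a median of -0.32. The difference of the responses was called on 5 probes, reaching 1.77 ± 0.69 on A_70_P041466 and 1.73 ± 0.64 on A_70_P041471. Over all probes 3.94% were called positive for it. As 5 of the 6 probes share at least 30 bases with another, they count as few readings. LOC443430, the T19 transcript with a gene name, was higher by 0.47 ± 0.22, a call also lost without NK2, NK4 or HK3. A_70_P056816 lost its call without any of 6 arrays.

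EM4C, whose transcript has no described role here, followed the same fetuses, at 8.19, 10.31, 9.07 and 9.16 after hypoxia against 7.35, 8.24, 7.88 and 8.77. The difference was 1.12 ± 0.44 under ketamine and -0.49 without. Leaving out HK2 (0.74), NK1 (0.88) or NK3 (1.06) ended the call under ketamine. Of 8 other lymphocyte markers on the array, CD40LG was the 1 called higher, where 2.77% of all named genes were. The summed signal of the 8 markers ran from 1181 to 1272 in normoxia + ketamine and from 1230 to 1478 in hypoxia + ketamine. The other 7 of these markers, among them CD3E, CD3D and CD5, differed by -0.22 to 0.35. CD40LG and CD4 were not above background on any of the 8 arrays. The part of lymphocyte number in the T19 values was not tested.

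**Figure D3:**
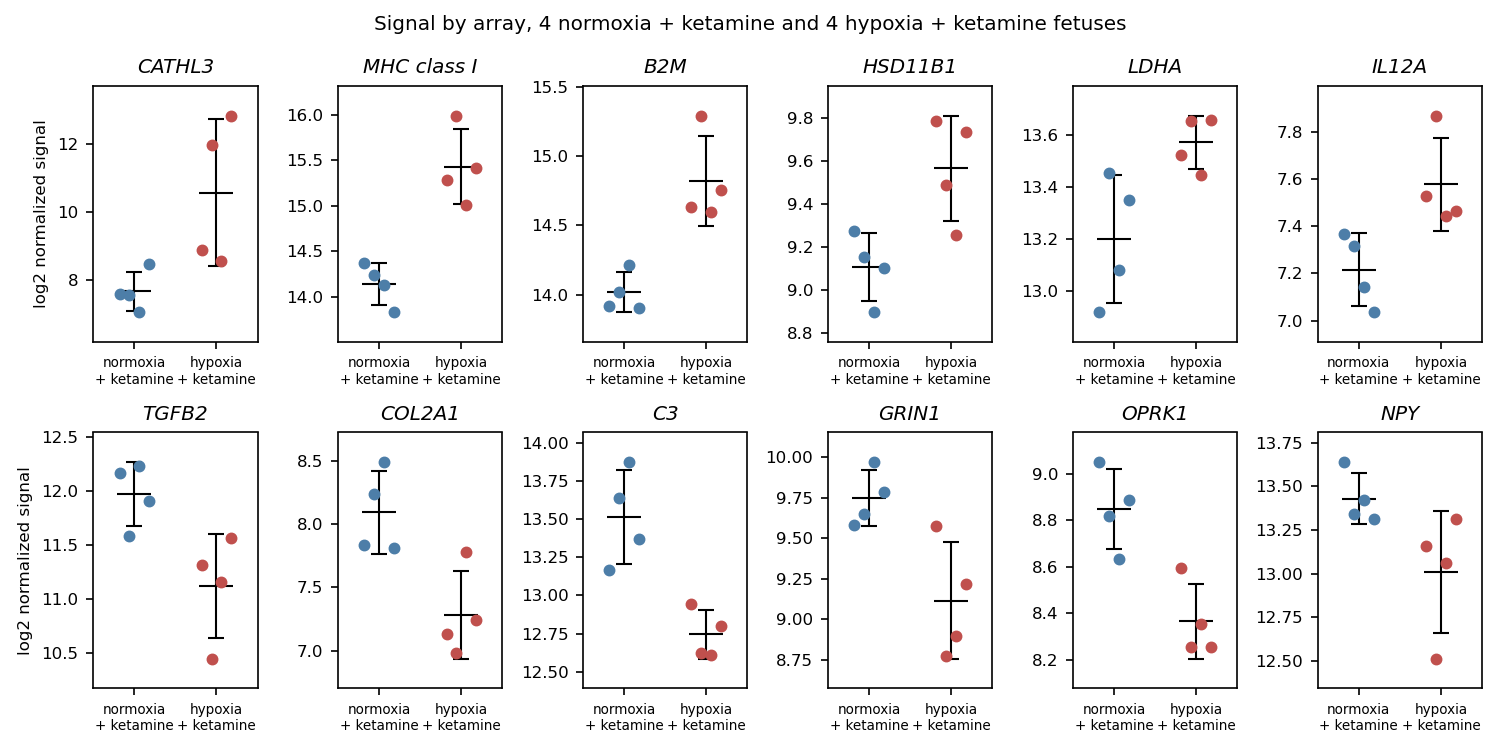
Log2 normalized signal in each of the 4 normoxia + ketamine (blue) and 4 hypoxia + ketamine (red) fetuses for 12 named readings, with the mean and SD of each group (MHC class I is probe A_70_P016816, GRIN1 probe A_70_P002822, and each panel has its own axis). The groups do not overlap for 10 of the 12, narrowly so for GRIN1 and NPY, and overlap for HSD11B1 and LDHA.

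Complement C3 was downregulated on both of its probes. C3 is the central protein of the complement cascade, made in the brain by astrocytes and microglia, and its fragments tag cells and synapses for uptake. On the first of the probes printed above, C3 read 13.17, 13.64, 13.87 and 13.37 in NK1 to NK4. In HK1 to HK4 it read 12.95, 12.62, 12.61 and 12.80. All 4 hypoxic fetuses lay below all 4 normoxic ones, by -0.77 ± 0.17 or 1.7-fold. The second probe, which shares no sequence with the first, read 12.25 to 13.13 in normoxia + ketamine and 11.81 to 12.10 in hypoxia + ketamine, without overlap (-0.68 ± 0.16).

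Without ketamine the C3 response ran the other way, upward by 0.43 ± 0.17 on the first probe and by 0.47 ± 0.17 on the second. The difference of the responses was -1.20 ± 0.24 on the first probe and -1.16 ± 0.23 on the second. On the first probe the decrease and the difference kept their direction and their call under all 25 and all 22 alternatives tried, the decrease between -0.62 and -0.92 and the difference between -1.08 and -1.31. Adjusted over all probes, the decrease had an adjusted P = 0.431 and the difference an adjusted P = 0.734, and the exact permutation P of the decrease was 0.0286. The other 8 complement and coagulation genes on the array were not called. C5aR, the receptor of the C5a fragment, differed by -0.18. SERPINA1 and F9 were not above background on any ketamine array.

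Transcripts of the ketamine target itself were lower. GRIN1 encodes the NMDA receptor subunit that binds glycine and is part of every NMDA receptor. Probe A_70_P002822 read 9.58, 9.65, 9.97 and 9.79 in normoxia + ketamine and 9.58, 8.77, 8.90 and 9.22 in hypoxia + ketamine. HK1 was level with the lowest normoxic fetus, and the other hypoxic fetuses were clearly below. The difference was -0.63 ± 0.18, a 1.55-fold decrease. The independent NR1 probe read 9.63, 9.74, 10.08 and 9.98 against 9.54, 9.07, 9.17 and 9.52, again without overlap (-0.53 ± 0.17). The other GRIN1 probe, A_70_P002821, gave -0.60 ± 0.18, and there the groups overlapped.

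Without ketamine the subunit was not called, with differences of -0.01 on A_70_P002822 and 0.00 on NR1. The responses differed by -0.63 ± 0.27 and -0.54 ± 0.24. With signals scaled to the 75th percentile in place of quantile normalization, which moved the median of all probes by 0.379, the decreases of GRIN1 and NR1 (-0.39 for NR1) were no longer called. Within slide 1 alone GRIN1 gave -0.44, which was not called, and within slide 2 it gave -0.82. The AMPA receptor subunits, which carry fast glutamate transmission, had 6 probes, and 1 of them, for GRIA4, was lower (-0.34), where 3.74% of all probes were. The metabotropic receptors had 13 probes, of which 0 were called. The glutamate transporters EAAT1, EAAT2 and EAAT3 differed by -0.37, -0.03 and -0.07, none of them called. Over the whole list of 13 glutamate and GABA genes on the array, NR1 was the 1 called, where 3.66% of all named genes were lower. The list median was -0.03.

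Among neuropeptides and monoamine receptors 4 of 30 genes were lower and 1 was higher, with a median of -0.05, where 3.66% of all named genes were lower and 2.77% higher. OPRK1, the kappa opioid receptor, which dampens transmitter release, read 9.05, 8.82, 8.63 and 8.89 in normoxia + ketamine and 8.60, 8.26, 8.36 and 8.25 in hypoxia + ketamine. The groups did not overlap, and the difference was -0.48 ± 0.12. Without ketamine it was 0.07, and the responses differed by -0.55 ± 0.18. Under scaling to the 75th percentile OPRK1 gave -0.19, which was not called, and relative to the shift of all probes -0.57.

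NPY, the peptide of a class of cortical interneurons, read 13.64, 13.34, 13.42 and 13.32 in NK1 to NK4 and 13.16, 12.51, 13.06 and 13.31 in HK1 to HK4 on probe A_70_P039277. HK4 was barely below the normoxic fetuses and HK2 well below them. The difference was -0.42 ± 0.16, and without HK2 it was -0.25 and without NK1 -0.35, neither of them called. ADRB1, the beta-1 adrenergic receptor, was lower by a smaller amount (-0.19 ± 0.06) without overlap. LOC443112, the mu opioid receptor, was lower too (-0.13 ± 0.06). The direction of ADRB1 and of LOC443112 turned under scaling to the 75th percentile, also relative to the shift of all probes. OXT, oxytocin, was higher by 0.13 ± 0.06, a call lost under 21 of 25 alternatives. The call of LOC443112 was lost when any of 5 arrays was left out (-0.11 to -0.14).

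**Figure D4:**
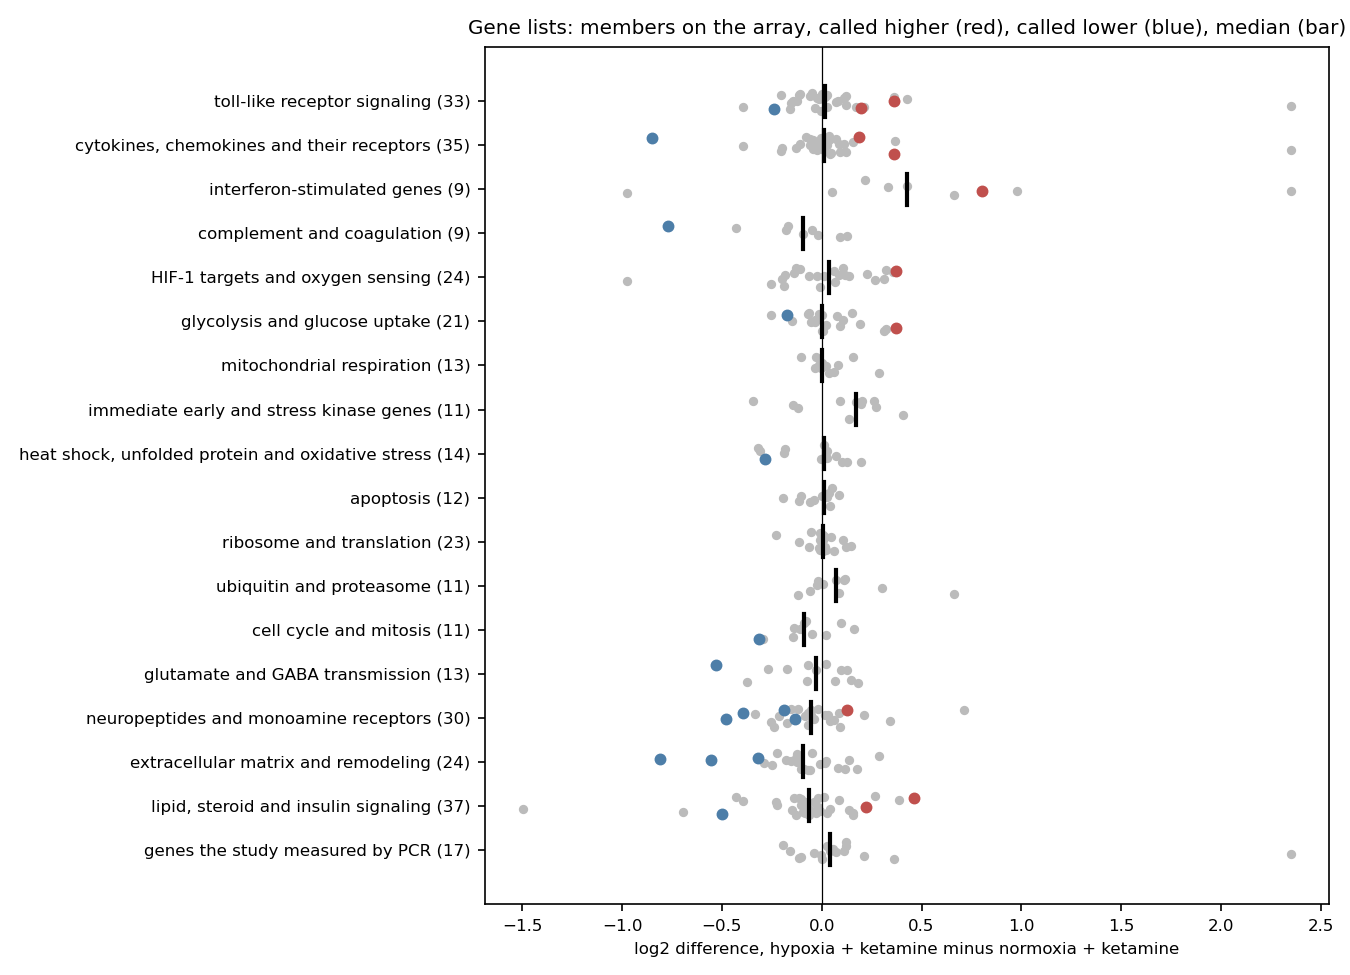
Log2 difference, hypoxia + ketamine minus normoxia + ketamine, of each gene of the 17 pathway lists and the study's PCR genes, 1 probe per gene, with the number on the array in parentheses. Red and blue points were called higher and lower and bars are list medians, which lie between -0.10 and 0.43.

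Of 24 extracellular matrix and remodeling genes 0 were higher and 3 were lower by limma's test, where 2.77% and 3.66% of all named genes were called. In all, 17 of the 24 differences were negative, and the median was -0.10 against -0.01 over named genes. COL2A1, a fibrillar collagen chain, read 7.84, 8.24, 8.49 and 7.81 in normoxia + ketamine and 7.13, 6.98, 7.78 and 7.24 in hypoxia + ketamine. The groups did not overlap (-0.81 ± 0.23), and under scaling to the 75th percentile COL2A1 gave -0.43, which was not called. DCN, the matrix proteoglycan decorin, read 12.54, 12.08, 12.39 and 11.46 against 11.86, 11.50, 11.62 and 11.29, with NK4 inside the hypoxic range (-0.55 ± 0.22). The DCN call was lost without NK1 (-0.41), NK3 (-0.46) or HK4 (-0.46). BGN, the related proteoglycan biglycan, was lower without overlap (-0.32 ± 0.14), and its direction turned under scaling to the 75th percentile, though not relative to the shift of all probes. The BGN call was lost when any of 5 arrays was left out (-0.24 without NK3 to -0.34).

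The responses of 7 matrix genes differed from those without ketamine, all 7 in the negative direction, where 3.37% of named genes were called negative. TIMP3, an inhibitor of metalloproteases, differed by -0.29 under ketamine and by 0.60 without (difference -0.89 ± 0.28). COL2A1 differed by -0.81 and by 0.03 (difference -0.84 ± 0.34), a difference no longer called without NK3 (-0.71) or HK2 (-0.74). Of the 12 markers of fibroblasts and meninges looked up, 4 were on the array, all 4 of them members of the matrix list, so they restate some of its values. DCN was called lower, where 3.66% of all named genes were, and 4 of 4 differences were negative. Their summed signal ran from 3375 to 6533 in normoxia + ketamine and from 3049 to 4214 in hypoxia + ketamine. Choroid plexus markers, 4 of 12 on the array and 0 called, summed to 9033 to 26065 and to 6426 to 17120, with AQP1 not above background on any of these arrays. The part of meningeal or choroid tissue in the samples was not tested.

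Other secreted and receptor genes among the decreases were SERPINF1, KITLG and FZD2. SERPINF1, pigment epithelium-derived factor, read 8.73, 8.59, 8.60 and 8.35 in normoxia + ketamine and 8.05, 8.27, 8.34 and 7.62 in hypoxia + ketamine (-0.50 ± 0.14). KITLG, the ligand of the KIT receptor, read 7.76, 7.52, 8.06 and 7.84 against 7.47, 7.13, 7.31 and 7.29 (-0.49 ± 0.14). Under scaling to the 75th percentile SERPINF1 gave -0.21, which was not called, and the direction of KITLG turned. Neither gene overlapped between the groups. FZD2, a Wnt receptor, was lower by a similar amount (-0.48 ± 0.22), a call lost when any of 5 arrays was left out (-0.39 to -0.50), and without the drug it gave -0.41 ± 0.23, which was not called. DERL1, a channel component for removing misfolded proteins from the endoplasmic reticulum, was lower by a smaller amount (-0.28 ± 0.10).

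Of 24 HIF-1 target and oxygen-sensing genes 1 was higher and 0 were lower by limma's test, with a median of 0.04, where 2.77% of all named genes were higher and 3.66% lower. LDHA, lactate dehydrogenase A, read 12.92, 13.46, 13.08 and 13.35 in normoxia + ketamine and 13.52, 13.65, 13.45 and 13.66 in hypoxia + ketamine. HK3 fell just below NK2, and the other hypoxic fetuses were above all normoxic ones (0.37 ± 0.10). The second LDHA probe gave 0.39 ± 0.13. VEGFA, the vascular growth factor, gave -0.18, HIF1A gave 0.23 and the glucose transporters GLUT-1 and SLC2A3 gave 0.32 and 0.31, none of them called. EPO, erythropoietin, was above background on 1 normoxia + ketamine array.

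Of 21 glycolysis and glucose uptake genes LDHA was higher, and PGD, an enzyme of the pentose phosphate pathway, was lower (-0.17 ± 0.07). Among 37 lipid, steroid and insulin genes 2 were higher and 1 was lower. The shares over all named genes, for both lists, were 2.77% higher and 3.66% lower. HSD11B1, which regenerates active glucocorticoid, read 9.27, 9.15, 8.90 and 9.10 in NK1 to NK4 and 9.79, 9.49, 9.26 and 9.74 in HK1 to HK4. HK3 fell just below NK1 (0.46 ± 0.15). Without ketamine the value was -0.18, and the responses differed by 0.64 ± 0.22. STAR, the cholesterol carrier of steroid synthesis, was higher by 0.22 ± 0.10 on a probe above background on 4 of the 8 arrays, and its other probe gave 0.04. Its call was lost when any of 5 arrays was left out (0.16 to 0.22), and that of PGD without NK1 (-0.14), HK2 (-0.16) or HK4 (-0.13). CPT1A, which admits fatty acids to mitochondria, was lower on both probes (-0.50 ± 0.20, and -0.51 ± 0.20), a call that was lost on the first without HK2 (-0.30) or NK3 (-0.43).

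HSPA5, the endoplasmic reticulum chaperone BiP, was the 1 gene called of 14 in the heat shock, unfolded protein and oxidative stress list (-0.28 ± 0.11), and its other probe gave -0.33 ± 0.11. CCND2, a cyclin of early cell cycle entry, was the 1 called of 11 cell cycle genes (-0.31 ± 0.15). Over all named genes 3.66% were called lower. The call of HSPA5 was lost without NK4 (-0.19) or HK2 (-0.24), and that of CCND2 when any of 6 arrays was left out (-0.19 to -0.34). No call was made among the genes for mitochondrial respiration (13), immediate early and stress kinases (11), apoptosis (12), ribosome and translation (23) or ubiquitin and proteasome (11), where 0 passed limma's unadjusted threshold. The same was true of the markers of astrocytes (7 genes), endothelium and blood-brain barrier (15), pericytes (1) and red blood cells (3). Microglia and macrophage markers, 6 genes of which 0 were called, summed to 3669 to 4393 in normoxia + ketamine and to 3462 to 5499 in hypoxia + ketamine.

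Of the remaining genes that passed the naming rule, K2.12 is annotated as a keratin of hair and wool. K2.12 read 7.01 to 7.20 in normoxia + ketamine and 7.40 to 7.94 in hypoxia + ketamine (0.48 ± 0.11). CHCHD3, a protein that organizes the inner membrane of mitochondria, was higher by 0.19 ± 0.06. KIAA2013 and SLAN, both of undescribed function here, were higher by 0.26 ± 0.07 and 0.23 ± 0.09. The groups did not overlap for these 4 genes. The call of SLAN was lost without NK2 (0.18), NK4 (0.19) or HK3 (0.19). Relative to the shift of all probes under scaling to the 75th percentile, KIAA2013, SLAN, CHCHD3, FLT3LG and LDHA lay below 0.

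Calls of the response under ketamine were set beside those of the response without it, and these comparisons have no array in common. Without ketamine 1197 probes were called, 7.98% of all, 501 of them higher (3.34%) and 696 lower (4.64%). Probes higher in both numbered 29. They were 6.20% of those higher under ketamine, where 3.34% of all probes were higher without it. They were 5.79% of those higher without it, where 3.12% of all were higher under ketamine. Probes lower in both numbered 31, or 5.53% of those lower under ketamine and 4.45% of those lower without it. The shares over all probes were 4.64% lower without it and 3.74% lower under ketamine. Opposite calls numbered 26 for higher under ketamine and lower without, and 12 for the reverse, C3 among the latter. They were 26 of 468 and 12 of 561, where 4.64% of all probes were lower without it and 3.34% higher. Across probes, which are not independent replicates, the responses correlated with r = 0.318 and rho = 0.0696.

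**Figure D5:**
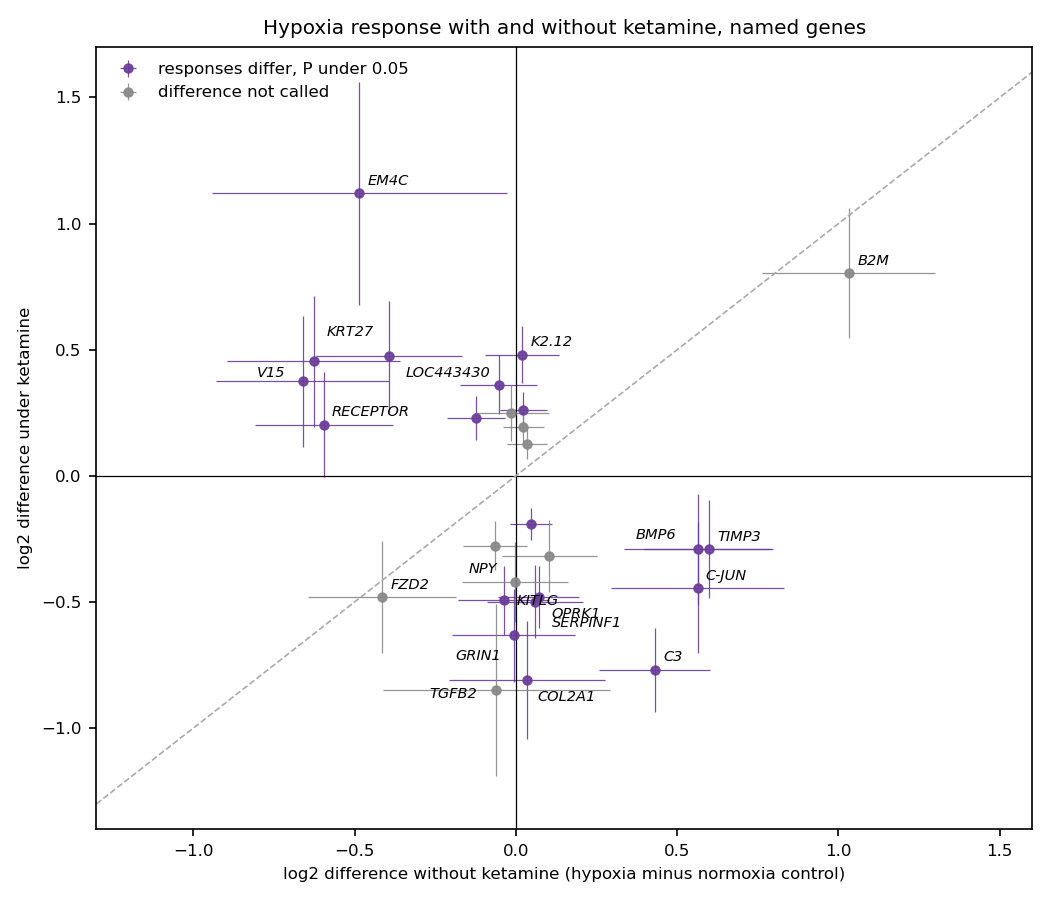
Log2 difference under ketamine (vertical axis) against the log2 difference without ketamine (horizontal axis) for the named genes, with lines of 1 SE in each direction. The dashed diagonal marks equal responses, purple points differed between the responses at an unadjusted P below 0.05, C3 lies at 0.43 and -0.77, and CATHL3 (1.77 and 2.90) is outside the range drawn.

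The difference between the responses was tested for each probe and was called for 953 (6.35%), 591 of them positive (3.94%) and 362 negative (2.41%), and 0 passed Benjamini-Hochberg adjustment (lowest adjusted P 0.734). With the doubly labelled control array left out 1104 probes were called, and with it placed in normoxia + ketamine 1117. With 1 probe per named gene, 71 genes were called (7.03%), 37 positive (3.66%) and 34 negative (3.37%). The largest positive differences among named genes belonged to EM4C (1.61, or 1.23 without HK2 and 1.37 without NK1, neither called), the keratin KRT27 (1.08), the wool keratin V15 (1.03), LOC443430 (0.87) and the probe named RECEPTOR, which the array describes as neuropilin-1 (0.80). KRT27 was not called under ketamine (0.45 ± 0.26) and fell without it (-0.63 ± 0.27). The largest negative differences belonged to C3 (-1.20), C-JUN (-1.01), TIMP3 (-0.89), BMP6 (-0.86) and COL2A1 (-0.84). C-JUN, a subunit of the AP-1 transcription factor, gave -0.44 ± 0.26 under ketamine and 0.56 ± 0.27 without on probe A_70_P016311. Its brighter probe gave -0.14 and 0.17, and there the difference of -0.31 ± 0.18 was not called. BMP6, a bone morphogenetic protein, gave -0.29 and 0.56. RECEPTOR lay below the shift of all probes under scaling to the 75th percentile.

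Astrocyte markers, of which 0 were called under ketamine, differed between the responses for 2 of 7 genes, named here after their values were seen. Both differences were negative, where 3.37% of all named genes were called negative. GFAP, the intermediate filament of reactive astrocytes, gave 0.08 ± 0.16 under ketamine and 0.79 ± 0.16 without, and the responses differed by -0.70 ± 0.23. VIM, vimentin, gave -0.26 and 0.36 (difference -0.62 ± 0.25). The 5 genes AQP4, CONNEXIN 43, EAAT1, EAAT2 and FGFR3 were not called for the difference.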

How the data were processed

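Frontal cortex RNA of 16 fetuses was measured on single-colour Agilent arrays, and grouping followed GEO's titles and description codes. Per the file headers, the deposited spot intensities (mean signal, local background and processed signal) came from Feature Extraction 10.1.1.1. The authors also deposited log2 values, background corrected and quantile normalized with limma in R 2.15.1, used here as an alternative; their background method is not given in the sources used here. In limma 3.58.1 (R 4.3.3), mean signals were corrected with normexp (offset 50) against the median local background. All 536 control spots and 222 outlier spots were left out, arrays were quantile normalized, and spots were averaged to 15008 probes.

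One linear model over the 4 groups gave hypoxia + ketamine minus normoxia + ketamine, the response without ketamine (5 against 3) and their difference, by limma's empirical Bayes test. Calls used limma's P below 0.05 without adjustment, the threshold of the study's methods. Benjamini-Hochberg adjustment covered all probes. Fetuses were taken as replicates, and no paired numbering was assumed. A spot well above background is one the scanner software flagged so, and the number of arrays limits the precision.

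Names came from the array's symbols, RefSeq accessions and gene IDs. Lists used 1 probe per gene, the one with the highest mean. Named were the 12 largest called increases and decreases without overlap among probes well above background on every array of a group (9 and 12 genes met this), every called list member, the study's PCR genes, and the 5 largest differences in each direction. Members, lists and families were chosen with earlier results of these data known. On simulated data for this comparison (14876 probes) the fit called 88% and 86% of shifts of 0.5 up and down, 94% and 100% of shifts of 1, and 4.94% of unchanged probes. Alternatives were other background and scaling methods, the authors' values, dim probes left out, slide and replicate blocks, array weights, only the 8 arrays, and each array left out.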

Additional observations from a re-analysis of the deposited data

Results flagged for a closer look

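In 7 of 148 groups of 4 arrays 1 array lay far from the others, with a gap over range above Dixon's limit. That is 4.73% of the groups, and chance gives about 1 in 20. HK2 was the high array for K2.12 (0.831), TNF (0.854), the MHC class I probes A_70_P016811 (0.849), A_70_P006944 (0.918) and A_70_P006906 (0.93), and OVAR A_70_P001716 (0.939), an MHC class I gene. NK3 was high for BGN (0.915).

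The responses with and without ketamine differed by limma's test at an unadjusted P below 0.05 for 29 of 74 probes examined. Over all probes 6.35% did. None passed adjustment. The probes had in part been picked for this difference, or for their change under ketamine, which is a part of it. The 2 shares are therefore not comparable. Positive differences on the log2 scale were EM4C 1.61, KRT27 1.08, V15 1.03, LOC443430 0.866 and 0.668, RECEPTOR 0.799, HSD11B1 0.642, K2.12 0.461, IL12A 0.415, SLAN 0.353, KIAA2013 0.238 and CD40LG 0.23. The T19 probes A_70_P041466, A_70_P041471 and A_70_P056816 differed by 1.77, 1.73 and 0.75. Negative differences were C3 -1.2, C-JUN -1.01, TIMP3 -0.887, BMP6 -0.855, COL2A1 -0.845, CD14 -0.744, DCN -0.712, GRIN1 -0.626 and -0.603, SERPINF1 -0.559, OPRK1 -0.552, NR1 -0.536, KITLG -0.456 and ADRB1 -0.239.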

How the results depend on the processing

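Scaling to the 75th percentile after normexp moved the median of all probes by 0.379 on the log2 scale, and the median difference by 0.506. The calls became 180 higher and 143 lower, or 55.7% higher in place of 45.5%, and 183 for the difference between the responses, and 24.9% of the 1029 calls were kept. Under it KITLG (0.068), BGN (0.034), ADRB1 (0.47), TRAF3 (0.12), LOC443112 (0.47), TIMP3 (0.042) and BMP6 (0.091) turned positive, and relative to the shift ADRB1 and LOC443112 stayed so. The cause was not tested. Adjusted P left 0, 0 and 0 calls, and 1 probe per named gene left 28, 37 and 71 because fewer features were tested. Within slide 1, added after seeing the data, 289 were higher and 279 lower, with fewer samples in each contrast. Within slide 2 the counts were 403 and 429. Leaving out 1 array gave 306 to 551 higher, fewest without NK3, 363 to 642 lower, fewest without HK2, and 724 to 1125 for the difference. Same-numbered deviations correlated at -0.015, -0.024, 0.0015 and 0.23, and 2 of 8 arrays fitted best with their own number. Replicate numbers were not taken as pairs, and whether fetuses shared a ewe was not tested. With the replicate number as a block 603 were higher, 698 lower and 1193 differed.

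Small uncalled values changed sign. TLR4 gave -0.000996 without background correction, -0.084 and -0.036 from processed signals scaled or quantile normalized, -0.060 with the doubly labelled hypoxia control array placed in normoxia + ketamine, -0.043 within slide 2, and -0.053 (without HK3) to 0.075 (without NK4) when 1 array was left out, negative for 5 of the 8. NFKBIA gave -0.030 with that array moved and -0.064 within slide 2. TNF gave -0.074 (without HK2) to 0.21 (without HK4) when 1 array was left out and -0.055 within slide 2. V15 gave -0.050 and MHC class I probe A_70_P045136 gave -0.38 within slide 1. Over 84 probe results, 1749 values kept direction and call, 262 lost a call, 30 gained one and 23 changed sign.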
